A study of Coccomyxa subellipsoidea C-169 with 6 samples.

Results

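Calcium, cyclic nucleotide and phosphatase signalling genes were followed in Coccomyxa subellipsoidea C-169, a green alga that lives as single cells. Members were the listed genes whose product name holds calmodulin, EF-hand, calcium-binding, a nucleotide cyclase, cyclic nucleotide, protein phosphatase, PP2C, tyrosine phosphatase or dual specificity, leaving out names with kinase, channel or transport. This rule found 37 of 9490 listed genes, of which 15 had calcium names, 5 cyclic nucleotide names and 17 phosphatase names. Messenger RNA was sequenced from 3 cultures labelled as the overexpressor CsubMADS1 OX and from 3 wild-type (WT) cultures. All 6 cultures were in stationary phase and were harvested 3 hours before dark. Both groups were biological replicates per the labels, which do not tell the promoter that drives the gene or how many lines or clones the CsubMADS1 OX cultures come from. What the p-values measure is therefore the spread between these cultures, and effects of the labelled gene and of a single line cannot be told apart.

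Cells use calcium ions as a short-lived signal that is read by proteins with EF-hands, helix-loop-helix folds that bind the ion. Calmodulin is the best known of them and passes the signal on by binding other proteins. Cyclic nucleotides are small messengers made by cyclases and read by proteins with a cyclic nucleotide-binding domain. Protein phosphatases take phosphate groups off proteins and so reverse the work of kinases, with regulatory subunits that choose their targets. In green algae these systems are known to take part in responses to light, stress and nutrients.

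Library totals ran from 3862791 to 5336375 counts in the OX-labelled libraries and from 3771499 to 4953851 counts in the WT libraries. Members took 0.352% to 0.367% of the counts in OX-labelled libraries and 0.329% to 0.343% in WT libraries. The 24 listed genes with a chlorophyll a-b binding product name, which mark plants and green algae, all had counts in every library. The 1 gene with a MADS-box product name, COCSUDRAFT_67545, held 68.5, 59.0 and 54.8 CPM in the OX-labelled libraries, against 95.3, 80.2 and 85.0 CPM in the WT libraries, where CPM is the count scaled to library size by the trimmed mean of M-values (TMM). This goes against the label. Its log2 fold change of -0.51 (SE 0.18) did not pass by edgeR's quasi-likelihood F test at an adjusted p of 0.0535, and passed with 5 of 13 other settings, whose adjusted p ran from 0.0295 to 0.168. That this gene is CsubMADS1 rests on its name alone, so the group is called OX-labelled and every direction below is that of the labels. Whether labels were swapped, which would turn every direction below, or whether reads of a transgene were counted apart from this gene was not tested. In bulk RNA, fewer cells that express a gene and less RNA per cell cannot be told apart.

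Of the 37 members, 35 had enough counts to be tested, and 33 of these had at least 30 counts in every library. Both untested members were EF-hand domain genes close to silent. COCSUDRAFT_43511 had 1 count in 1 OX-labelled library and 0 counts in WT, and COCSUDRAFT_39616 had 1 count over the OX-labelled libraries and 2 counts over WT. Among the 35 tested members, 7 passed as higher in OX-labelled libraries, 2 passed as lower and 26 did not pass (edgeR's quasi-likelihood test, Benjamini-Hochberg adjusted p under 0.05 over 8575 genes). Over all tested genes, 24.6% were called, 15.6% as higher and 8.98% as lower. With library size as the only scaling, the higher genes were 53.4% of all calls in place of 63.5%. In that fit 6 of 35 members were higher and 2 lower, against 13.3% and 11.6% of all genes. The members' median log2 fold change was 0.00, as was that over all genes. OX-labelled and WT libraries did not overlap for 8 members on the higher side and 3 on the lower side, against 23.1% of all tested genes on the higher side, 19.8% on the lower side and 42.9% on either side. The members' share of calls was thus close to that of all genes.

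**Figure D1:**
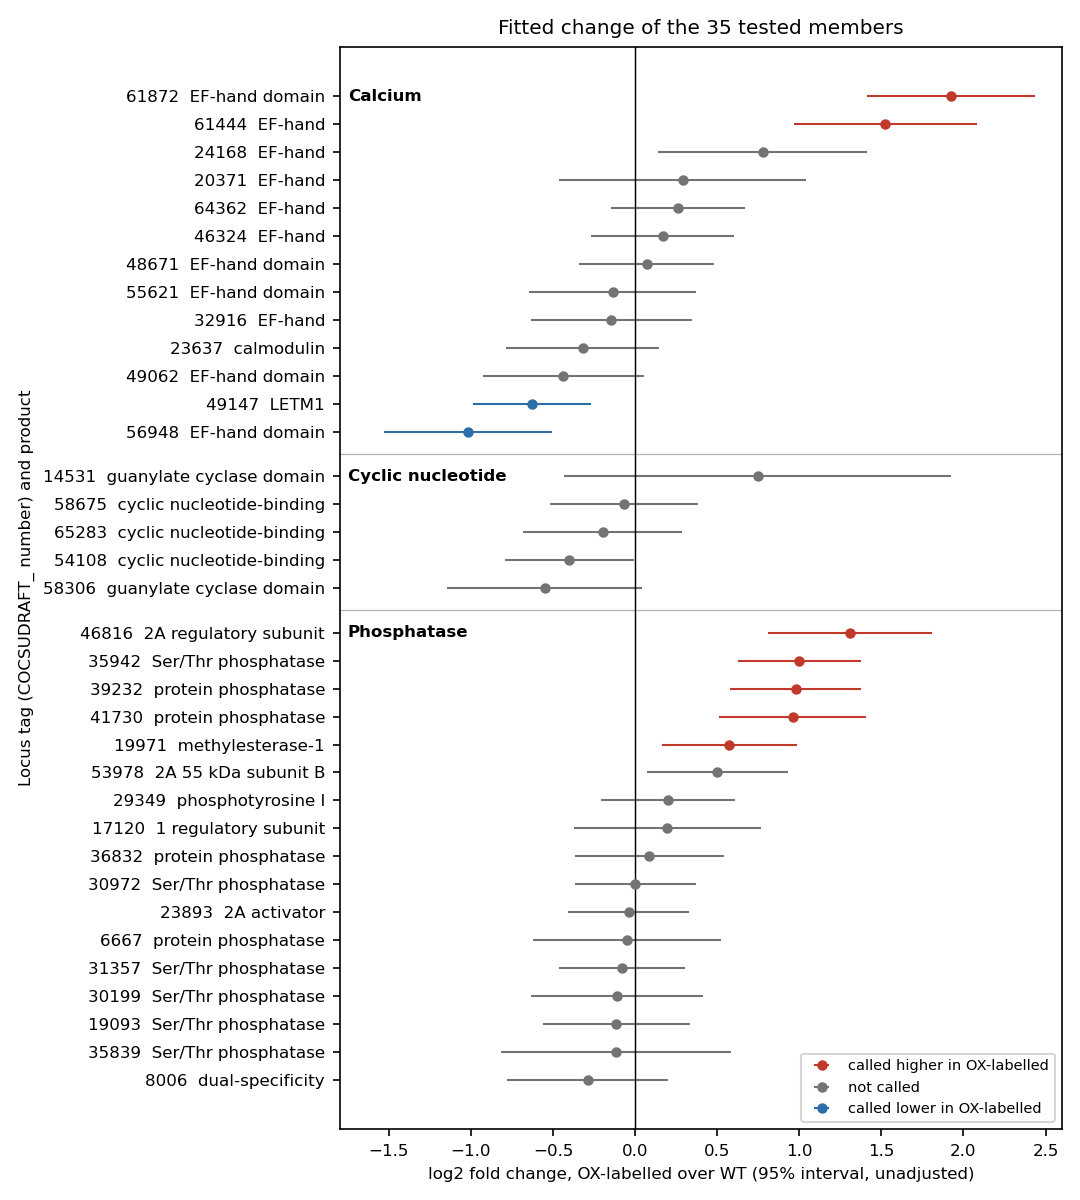
Fitted log2 fold change, OX-labelled over WT, on the x axis for each of the 35 tested members (y axis, by locus tag number), with unadjusted 95% intervals as bars. The 7 members called higher are red, the 2 called lower blue and the 26 not called grey, and no cyclic nucleotide gene was called.

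Calcium-binding genes moved in both directions. Of 13 tested members, 2 were higher, 2 lower and 9 did not pass (edgeR), or 30.8% called against 24.6% of all genes. The median log2 fold change of the group was 0.07, against 0.00 over all genes. With library size as the only scaling it was -0.01, against -0.07 over all genes in that fit. Both rises were larger than 2-fold, while calmodulin itself did not pass.

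Calmodulin, COCSUDRAFT_23637, held 942, 894 and 583 CPM in the OX-labelled libraries, against 1078, 1098 and 844 CPM in the WT libraries. OX-labelled replicate 3 was the lowest of all, and the groups overlapped between the higher OX-labelled libraries and WT replicate 3. The level averaged 806 ± 195 CPM in OX-labelled and 1007 ± 141 CPM in WT libraries (SD, n = 3 each). Its log2 fold change was -0.32, with an unadjusted 95% interval of -0.79 to 0.15 and an edgeR adjusted p of 0.296. Per kilobase of gene span, introns included, it had the highest level of the 37 members, at 570 CPM per kb in OX-labelled and 712 CPM per kb in WT libraries. The next member on that scale, the EF-hand gene COCSUDRAFT_24168, had 183 CPM per kb in OX-labelled and 107 CPM per kb in WT libraries. Calmodulin made up 38.4% of the counts of the 15 calcium genes in OX-labelled libraries and 48.5% in WT libraries.

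The largest rise of any member was that of the EF-hand domain gene COCSUDRAFT_61872. It held 159, 242 and 277 CPM in the OX-labelled libraries, against 51.3, 55.4 and 72.3 CPM in the WT libraries. Every OX-labelled library was far above every WT library. The log2 fold change was 1.92 (SE 0.24, with an adjusted p of 0.000274 in edgeR), which is 3.79-fold. A second EF-hand gene, COCSUDRAFT_61444, held 54.5, 45.1 and 51.3 CPM in the OX-labelled libraries, against 11.1, 19.0 and 22.8 CPM in the WT libraries. The OX-labelled libraries lay close together and the WT libraries were more spread, without overlap between the groups. It was 2.87-fold higher, with a log2 fold change of 1.52 (SE 0.26, with an adjusted p of 0.0015 in edgeR).

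A fall of about the size of 1 log2 unit was seen for the EF-hand domain gene COCSUDRAFT_56948. Levels of 11.6, 14.3 and 17.3 CPM were found in the OX-labelled libraries, against 32.0, 31.4 and 23.8 CPM in the WT libraries. All OX-labelled libraries were below all WT libraries, and the log2 fold change was -1.02 (SE 0.24, with an adjusted p of 0.00895 in edgeR). COCSUDRAFT_49147 carries the name leucine zipper-EF-hand-containing transmembrane protein 1 (LETM1), known from human and yeast cells as a protein of the mitochondrial inner membrane that takes part in ion exchange for protons. This gene held 110, 113 and 99.8 CPM in the OX-labelled libraries, against 172, 160 and 166 CPM in the WT libraries. Both groups were narrow and did not overlap. It fell by 0.63 (log2, SE 0.16, with an adjusted p of 0.0169 in edgeR). The call was lost without WT replicate 1 (edgeR adjusted p = 0.0647) and without WT replicate 2 (edgeR adjusted p = 0.0518), with log2 fold changes of -0.63 and -0.67.

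Several calcium genes that did not pass were uneven among the OX-labelled libraries. The EF-hand gene COCSUDRAFT_24168 held 406, 431 and 164 CPM in the OX-labelled libraries, against 191, 206 and 187 CPM in the WT libraries. OX-labelled replicates 1 and 2 were above all WT libraries and replicate 3 was below them. Its log2 fold change of 0.78 did not pass (edgeR adjusted p = 0.073), and 11 of 13 other settings also left it uncalled. Without OX-labelled replicates 1 and 2 in turn, it was 0.61 and 0.55 (edgeR adjusted p = 0.238 and 0.217). It was called without OX-labelled replicate 3, at 1.10 (edgeR adjusted p = 4.73e-05), and by the DESeq2 Wald test on all libraries (adjusted p = 0.0397). The EF-hand gene COCSUDRAFT_32916 also had its lowest level in OX-labelled replicate 3, at 211, 159 and 111 CPM in the OX-labelled libraries, against 167, 196 and 169 CPM in the WT libraries. Its groups overlapped, and the log2 fold change of -0.15 (edgeR adjusted p = 0.673) became 0.059 without that library.

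For the EF-hand domain gene COCSUDRAFT_49062 the same library was the high one, at 71.2, 86.5 and 127 CPM in the OX-labelled libraries, against 150, 119 and 116 CPM in the WT libraries. Replicate 3 lay among the WT libraries and the other two OX-labelled libraries below them. Its log2 fold change was -0.44 (edgeR adjusted p = 0.177), and 12 of 13 other settings also left it uncalled. Without OX-labelled replicates 1 and 2 in turn, it was -0.27 and -0.38 (edgeR adjusted p = 0.462 and 0.309). Only without OX-labelled replicate 3 was it called, at -0.71 (edgeR adjusted p = 0.00744). Without that library, 3 calcium genes were higher and 3 lower, while over all genes the calls grew to 18.9% higher and 14.3% lower in that fit. Of the 9 calcium genes that did not pass, 5 had a fold change above 0 and 4 below 0, and 7 had an unadjusted 95% interval that stayed within a 2-fold change either way. The span of COCSUDRAFT_48671, one of these, overlaps another annotated gene, so its reads may not all be its own.

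**Figure D2:**
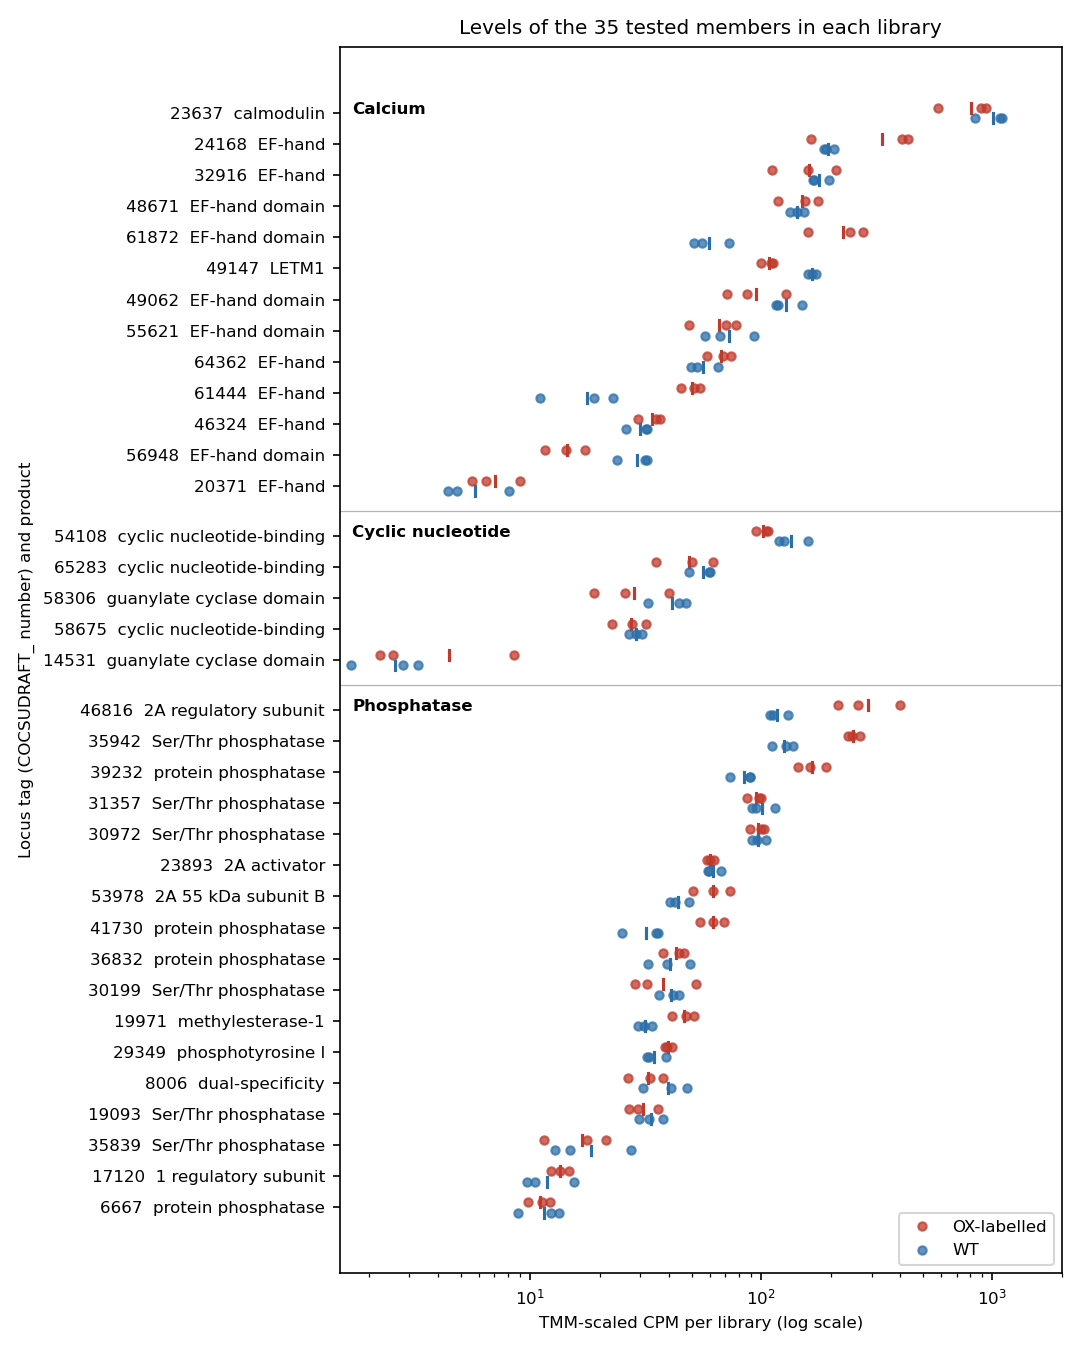
TMM-scaled CPM in each library on a log x axis for the 35 tested members (y axis, by locus tag number), with OX-labelled libraries in red above WT libraries in blue and a short bar at each group's mean. Points of both colours lie apart for COCSUDRAFT_61872 (159 to 277 CPM against 51.3 to 72.3 CPM) and overlap for calmodulin.

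No cyclic nucleotide gene passed. All 5 members were tested, with 0 called by edgeR, against 24.6% of all genes, and 0 by the DESeq2 Wald test or limma-voom. An unadjusted edgeR p under 0.05 was found for 1 of them, against 37.9% of all genes. Without OX-labelled replicate 3, 1 was called lower by edgeR, against 14.3% of all genes in that fit. Of the 5 fold changes, 4 were below 0, and the median was -0.20 on the log2 scale against 0.00 over all genes. The genes COCSUDRAFT_14531 and COCSUDRAFT_58675 fell outside the rule for named genes and are given because the group is small.

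Guanylate cyclase domains make cyclic guanosine monophosphate, and related domains make the adenosine form. The product name alone does not tell which form a gene's product makes. The guanylate cyclase domain gene COCSUDRAFT_58306 held 18.8, 25.8 and 40.0 CPM in the OX-labelled libraries, against 44.0, 32.4 and 47.0 CPM in the WT libraries. OX-labelled replicate 3 lay within the WT range and the other two OX-labelled libraries below it. The log2 fold change was -0.55 (SE 0.27, with an adjusted p of 0.158 in edgeR), and 12 of 13 other settings also left it uncalled. Without OX-labelled replicates 1 and 2 in turn, it was -0.33 and -0.50 (edgeR adjusted p = 0.437 and 0.268). Only without OX-labelled replicate 3 was it called, at -0.89 (edgeR adjusted p = 0.00887). The other guanylate cyclase domain gene, COCSUDRAFT_14531, had few reads, with 13, 10 and 34 counts in the OX-labelled libraries, against 14, 8 and 13 counts in the WT libraries. Only OX-labelled replicate 3 stood above the rest. At 2.55, 2.24 and 8.55 CPM in OX-labelled and 2.82, 1.68 and 3.29 CPM in WT libraries, its log2 fold change was 0.75 with an unadjusted 95% interval of -0.43 to 1.93, which takes in a 2-fold rise. The parts of the low counts and of the spread among OX-labelled libraries in that interval were not tested.

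Cyclic nucleotide-binding domains are the receivers of the messenger. COCSUDRAFT_54108 held 105, 94.6 and 107 CPM in the OX-labelled libraries, against 159, 125 and 119 CPM in the WT libraries. The groups did not overlap, but the log2 fold change of -0.40 (SE 0.18) missed the threshold (edgeR adjusted p = 0.125, unadjusted p = 0.0461 in the same test). COCSUDRAFT_65283 held 50.0, 35.0 and 61.6 CPM in the OX-labelled libraries, against 60.1, 48.6 and 59.2 CPM in the WT libraries. The groups overlapped, and its log2 fold change was -0.20 (unadjusted 95% interval -0.68 to 0.29). COCSUDRAFT_58675 held 22.6, 31.6 and 27.7 CPM in the OX-labelled libraries, against 26.7, 28.6 and 30.3 CPM in the WT libraries, and its interval of -0.52 to 0.38 stayed within a 2-fold change.

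Of 17 tested phosphatase members, 5 were higher, 0 lower and 12 did not pass (edgeR). The share called higher was 29.4% against 15.6% of all genes, and 0 were lower against 8.98% of all genes. With genes of other phosphatase spellings added to these 17, chosen after the names had been seen, 7 of 38 genes (18.4%) were higher and 1 lower. The 21 added genes alone had 9.52% higher and 4.76% lower. At an unadjusted p under 0.05 in edgeR, 6 of the 17 members passed, against 37.9% of all genes, and no lower member was called by the DESeq2 Wald test or limma-voom either. The median log2 fold change was 0.09 against 0.00 over all genes. Summed over the 5 called genes, the level was 821, 709 and 915 CPM in the OX-labelled libraries, against 371, 403 and 395 CPM in the WT libraries. The other 12 genes summed to 526, 544 and 546 CPM in the OX-labelled libraries, against 512, 524 and 564 CPM in the WT libraries. All 12 had an unadjusted 95% interval within a 2-fold change either way.

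Serine/threonine-protein phosphatase is the name of 6 members, and 1 of these rose, where 15.6% of all genes were called higher. COCSUDRAFT_35942 held 268, 237 and 246 CPM in the OX-labelled libraries, against 111, 137 and 128 CPM in the WT libraries. Both groups were narrow and far from overlap. It was 2.00-fold higher, with a log2 fold change of 1.00 (SE 0.17, with an adjusted p of 0.00172 in edgeR). The other 5 genes of that name had log2 fold changes from -0.12 to 0.00, all with edgeR adjusted p of at least 0.723 and with unadjusted 95% intervals between -0.82 and 0.58. Their mean levels ran from 16.8 to 97.3 CPM in OX-labelled and from 18.3 to 101 CPM in WT libraries.

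Protein phosphatase, with no further description, is the name of 4 members, and 2 of these rose, against 15.6% of all genes called higher. With so few genes per name, a difference between names was not tested. COCSUDRAFT_39232 held 190, 144 and 162 CPM in the OX-labelled libraries, against 73.2, 89.3 and 89.3 CPM in the WT libraries. All OX-labelled libraries were above all WT libraries, and the log2 fold change was 0.98 (SE 0.18, with an adjusted p of 0.00294 in edgeR). COCSUDRAFT_41730 held 54.5, 62.1 and 68.9 CPM in the OX-labelled libraries, against 24.9, 35.6 and 34.9 CPM in the WT libraries. It was 1.94-fold higher without overlap between groups (log2 fold change 0.96, SE 0.21, edgeR adjusted p = 0.00609). The other two, COCSUDRAFT_36832 and COCSUDRAFT_6667, had log2 fold changes of 0.09 and -0.05.

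Phosphatase 2A is a heteromeric enzyme whose regulatory subunits direct it to substrates. The phosphatase 2A regulatory subunit gene COCSUDRAFT_46816 held 261, 215 and 396 CPM in the OX-labelled libraries, against 131, 112 and 109 CPM in the WT libraries. OX-labelled replicate 3 was the highest, and even the lowest OX-labelled library was above all WT libraries. The change was 2.47-fold (log2 1.31, SE 0.23, edgeR adjusted p = 0.00195), and 1.02 on the log2 scale without OX-labelled replicate 3. The 55 kDa regulatory subunit B gene, COCSUDRAFT_53978, held 50.8, 61.9 and 73.2 CPM in the OX-labelled libraries, against 40.4, 42.3 and 48.6 CPM in the WT libraries. Here too the groups did not overlap, but the log2 fold change of 0.50 (SE 0.20) did not pass (edgeR adjusted p = 0.083).

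Protein phosphatase methylesterase-1, COCSUDRAFT_19971, is known from mammals and yeast to remove a methyl group from the catalytic subunit of phosphatase 2A. This gene held 47.1, 51.1 and 41.2 CPM in the OX-labelled libraries, against 31.0, 29.3 and 33.6 CPM in the WT libraries. The groups did not overlap. Its rise of 1.49-fold was close to the threshold (log2 0.57, SE 0.19, edgeR adjusted p = 0.0452). The call was lost with 9 of 13 other settings, among them the fits without OX-labelled replicates 1 and 2 (edgeR adjusted p = 0.0968 and 0.0938) and without WT replicates 1, 2 and 3 (edgeR adjusted p = 0.159, 0.182 and 0.0973). The phosphatase 2A activator COCSUDRAFT_23893 had 59.8, 58.3 and 62.6 CPM in the OX-labelled libraries, against 67.0, 59.0 and 59.7 CPM in the WT libraries. These values overlapped, and its log2 fold change was -0.04 (unadjusted 95% interval -0.41 to 0.33).

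Of the remaining phosphatase members, the dual-specificity phosphatase COCSUDRAFT_8006, of a class that acts on both tyrosine and serine or threonine, held 33.0, 37.7 and 26.4 CPM in the OX-labelled libraries, against 30.8, 40.6 and 47.5 CPM in the WT libraries. Its groups overlapped, and the log2 fold change of -0.29 did not pass (edgeR adjusted p = 0.372). The tyrosine phosphatase COCSUDRAFT_29349 and the phosphatase 1 regulatory subunit gene COCSUDRAFT_17120 both had log2 fold changes of 0.20, with unadjusted 95% intervals of -0.21 to 0.61 and -0.37 to 0.77. The span of COCSUDRAFT_29349 overlaps another annotated gene, and how strand was set in the counting is not stated in the sources used here.

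**Figure D3:**
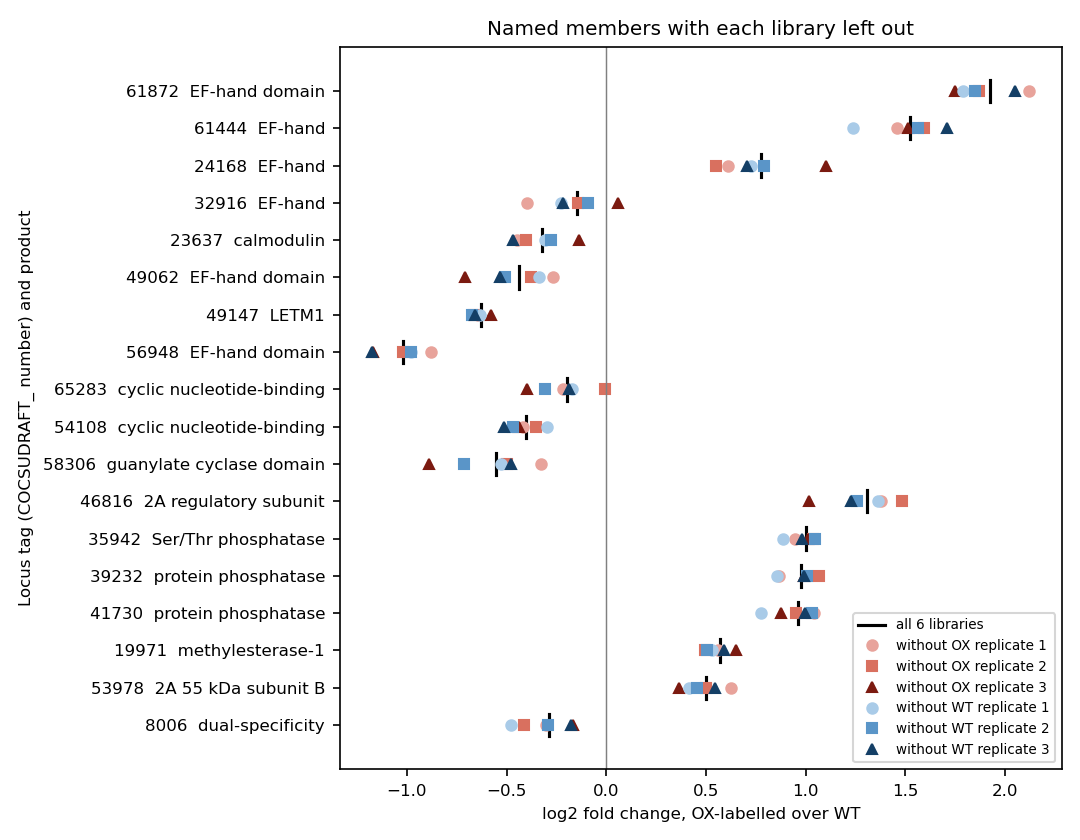
Log2 fold change, OX-labelled over WT, on the x axis for the 18 members named by the fixed rule (y axis), with all 6 libraries (black bar) and with each library left out (symbols). Symbols of COCSUDRAFT_24168 reach 1.10 and those of COCSUDRAFT_58306 reach -0.89 without OX-labelled replicate 3, and those of COCSUDRAFT_32916 cross 0.

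The called members differed in what surrounded them on the scaffolds of the RefSeq assembly Coccomyxa subellipsoidae v2.0, which was used here for gene order and span only. The EF-hand domain gene COCSUDRAFT_61872, the phosphatase 2A regulatory subunit gene COCSUDRAFT_46816 and the phosphatase gene COCSUDRAFT_35942 lie on the same scaffold within 34 annotated genes. Of the 27 other tested genes in that stretch, 23 were called higher and 0 lower (edgeR), with a median log2 fold change of 1.01. The changes of the 3 members were 1.92, 1.31 and 1.00 on the same scale. Among the 10 tested genes on each side, 17 were called higher around COCSUDRAFT_61872, 17 around COCSUDRAFT_46816 and 13 around COCSUDRAFT_35942. The counts around COCSUDRAFT_46816 and COCSUDRAFT_35942 are not separate, since they share many genes and each counts as a neighbour of the other. Over the 8000 tested genes with 20 such neighbours, the median was 2 neighbours called higher and 2 called lower, and 4.62% had at least 10 called higher.

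The guanylate cyclase domain gene COCSUDRAFT_14531 lies on the same scaffold, outside that stretch, with 234 annotated genes between it and COCSUDRAFT_35942. It had 11 neighbours called higher, but did not pass itself. COCSUDRAFT_8006, also on that scaffold, had 3 neighbours called higher and 2 called lower, and did not pass either. Around the other 4 members called higher, the neighbours called higher were no more than that median. COCSUDRAFT_61444, COCSUDRAFT_39232, COCSUDRAFT_41730 and COCSUDRAFT_19971 had 1, 0, 2 and 2 of 20 neighbours called higher, 4, 2, 0 and 1 called lower, and neighbour medians of -0.02, -0.04, 0.01 and 0.08 on the log2 scale. COCSUDRAFT_56948, called lower, had 3 of 20 neighbours called lower and 5 called higher. COCSUDRAFT_49147, also called lower, had 0 of 16 called lower and 3 called higher, with a neighbour median of -0.29. Without the members that had at least 10 neighbours called higher, 31 tested members were left, with 4 called higher (12.9%) and 2 lower (6.45%). Over all tested genes with fewer such neighbours, 12.9% were called higher and 9.40% lower. The part of the neighbourhood in the change of these members was not tested.

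**Figure D4:**
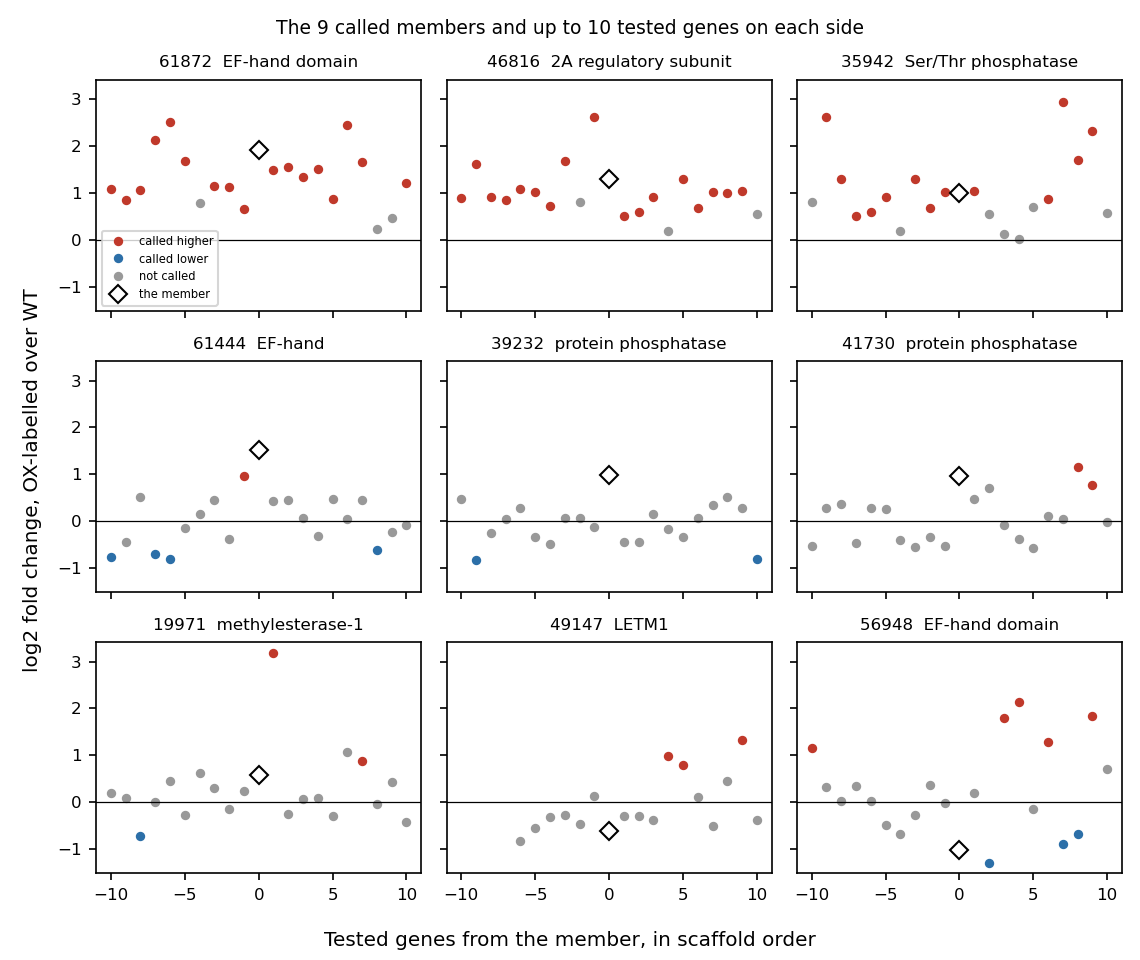
Log2 fold change, OX-labelled over WT, on the y axis for each of the 9 called members (diamond) and up to 10 tested genes on each side in scaffold order (x axis, number of tested genes from the member), with called genes in red (higher) and blue (lower). In the top row most neighbours are red, 17, 17 and 13 of 20, with shared genes in the panels of COCSUDRAFT_46816 and COCSUDRAFT_35942. In the panels of COCSUDRAFT_61444, COCSUDRAFT_39232 and COCSUDRAFT_41730 most are grey around 0.

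The highest library was over 1.5 times the lowest for 13 of the 35 tested members (37.1%) in OX-labelled libraries and for 9 (25.7%) in WT libraries. Over all tested genes the same held for 45.6% in OX-labelled and 19.5% in WT libraries, so the wider OX-labelled spread was a trait of the libraries at large. The widest spread was 3.81-fold in OX-labelled libraries, for COCSUDRAFT_14531, and 2.13-fold in WT libraries, for COCSUDRAFT_35839. Of the 13 members with a wide spread in OX-labelled libraries, OX-labelled replicate 3 was the highest for 9 and the lowest for 4. Without this library, 8 members were higher and 4 lower, against 18.9% higher and 14.3% lower of all genes in that fit. The 9 calls made with all libraries were all among them.

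Other genes of these pathways were taken from lists of product names. Of 4 calcium transport genes, 0 were called by edgeR, against 24.6% of all genes. An unadjusted edgeR p under 0.05 with a change below 0 was found for 3 of them, against 16.3% of all genes. The calcium-transporting ATPase COCSUDRAFT_31297, an ion pump, held 348, 631 and 347 CPM in the OX-labelled libraries, against 749, 635 and 636 CPM in the WT libraries. OX-labelled replicate 2 came close to the WT libraries and the other two were lower, with a log2 fold change of -0.61 (edgeR adjusted p = 0.0825). Neither the 1 calcium-dependent protein kinase (log2 fold change -0.18) nor the 2 tested genes for reading or breaking down cyclic nucleotides were called. Both of these were named as kinases dependent on cyclic guanosine monophosphate, and a phosphodiesterase fragment, COCSUDRAFT_5325, had too few counts to be tested.

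Among 5 genes for lipid and luminal calcium signalling, 2 were higher and 0 lower (edgeR), against 15.6% and 8.98% of all genes. Calreticulin, COCSUDRAFT_24759, which binds calcium in the endoplasmic reticulum and helps proteins fold, held 209, 179 and 203 CPM in the OX-labelled libraries, against 86.5, 123 and 108 CPM in the WT libraries. The groups were well apart, and the log2 fold change was 0.90 (SE 0.19, with an adjusted p of 0.0052 in edgeR). The calreticulin/calnexin gene COCSUDRAFT_17524 had a log2 fold change of -0.31 (edgeR adjusted p = 0.211). The C2 domain gene COCSUDRAFT_61028 had a log2 fold change of -0.23 and did not pass (edgeR adjusted p = 0.393). Another, COCSUDRAFT_58088, named Aida_C2, rose by 0.80 (log2, SE 0.24, with an adjusted p of 0.0289 in edgeR). That call was lost with library size as the only scaling (edgeR adjusted p = 0.0541), without OX-labelled replicate 3 (edgeR adjusted p = 0.0545) and without WT replicates 1, 2 and 3 (edgeR adjusted p = 0.095, 0.139 and 0.0698).

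Further phosphatase genes were listed under the names metallo-dependent phosphatase, which most carried, and phosphatase 2A regulatory subunit B. Among 13 tested, 1 was called higher (7.69%) and 4 lower (30.8%), against 15.6% and 8.98% of all genes. The higher one, COCSUDRAFT_13997, is named phosphatase 2A regulatory subunit B. It held 96.3, 141 and 110 CPM in the OX-labelled libraries, against 59.7, 56.4 and 59.9 CPM in the WT libraries, with no overlap, and rose by 0.98 (log2, SE 0.19, with an adjusted p of 0.00362 in edgeR). All 4 lower genes were named metallo-dependent phosphatase, a fold that also holds enzymes acting on small molecules. COCSUDRAFT_36336 had the largest fall, at 12.7, 28.2 and 12.6 CPM in the OX-labelled libraries, against 59.9, 61.1 and 63.2 CPM in the WT libraries. Even its highest OX-labelled library was far below every WT library (log2 fold change -1.78, SE 0.29, edgeR adjusted p = 0.00124). The others were COCSUDRAFT_43840, COCSUDRAFT_59751 and COCSUDRAFT_66067, at -0.97, -0.85 and -0.70, and the call of COCSUDRAFT_66067 was lost without OX-labelled replicate 1 (edgeR adjusted p = 0.0967) and without WT replicates 1, 2 and 3 (edgeR adjusted p = 0.101, 0.102 and 0.073).

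Protein phosphatase names that the member rule's spelling misses, such as protein-serine/threonine phosphatase, were looked at after the names had been seen. They belong to 22 further genes, of which 21 were tested, with 2 higher, 1 lower and a median log2 fold change of -0.02. COCSUDRAFT_60847 held 50.2, 38.3 and 83.0 CPM in the OX-labelled libraries, against 13.9, 20.6 and 20.2 CPM in the WT libraries, without overlap (log2 fold change 1.65, SE 0.29, edgeR adjusted p = 0.0021). COCSUDRAFT_59328, named as a phosphatase 2C, rose by 0.77 (log2, edgeR adjusted p = 0.0114), a call lost without WT replicates 1 and 2, with adjusted p from 0.00379 to 0.081 over the 13 other settings. COCSUDRAFT_57726 fell by 0.70 (log2, edgeR adjusted p = 0.0377), a call lost in each of 5 fits that leave out 1 library, the fit without OX-labelled replicate 3 being the exception. Counted with the 17 members, 7 of 38 tested phosphatase genes (18.4%) were higher and 1 was lower (2.63%), against 15.6% and 8.98% of all genes. This pool takes in the 5 higher members again. It leaves out the 13 genes of the preceding list, with 1 higher and 4 lower.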

How the data were processed

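Raw read counts per gene were deposited by the authors, 1 file per library, not normalized. Per the submitters' processing notes, FastQC, Trim Galore, HISAT and HTSeq were used, with no versions. The genome build, the strand setting and the handling of reads that match several genes are not stated in the sources used here, which matters for near-identical phosphatase or EF-hand copies. Product names came from the deposited files, and all 9490 locus tags matched the RefSeq assembly Coccomyxa subellipsoidae v2.0.

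The test was that of edgeR 4.0.16 (R 4.3.3), with filterByExpr, TMM scaling and the robust quasi-likelihood F test of OX-labelled over WT, two-sided, adjusted by Benjamini-Hochberg over 8575 genes. Standard errors (SE) were taken as the fitted log2 change divided by the root of F. The biological coefficient of variation was 19.8%. A count of 3 stood for 0.588 to 0.759 CPM. Counting error is the only error such a floor covers. No pair of libraries agreed within sampling noise (lowest chi-square per degree of freedom 6.97).

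Members and lists were chosen with earlier results of these data known. Named genes were, in each group, up to 10 calls per direction, the 3 highest in CPM, the 2 largest changes that did not pass with at least 5 CPM, calls of at least 4-fold and genes silent in 1 group. Alternatives were other scalings and filters, DESeq2 1.42.0, limma-voom (limma 3.58.1), a replicate block, fits that leave out 1 library, a threshold of 0.01 and wider spellings. The fits were also run on simulated data with few changed genes, balanced up and down. These data had more calls and most were higher, so that check covers only the simpler setting.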

Additional observations from a re-analysis of the deposited data

How the results depend on the processing

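Of the 9 calls among members, 9 were kept with DESeq2 size factors, the DESeq2 Wald test, limma-voom and without OX-labelled replicate 3, 8 with library size only, without a filter, with a filter of 1 CPM in 3 libraries, and without OX-labelled replicates 1 or 2 or WT replicate 3, and 7 without WT replicates 1 or 2. At an adjusted p under 0.01, 7 of the 9 calls were kept. At that threshold 1 calcium gene stayed lower in place of 2, and 4 phosphatase genes stayed higher in place of 5. Over all genes, 8.86% were higher and 2.40% lower at that threshold. Leaving out 1 library gave 1 to 3 lower calcium genes and 0 to 1 lower cyclic nucleotide genes, while 3.63% to 14.3% of all genes were called lower in those fits. COCSUDRAFT_32916 was the 1 named gene whose sign turned, to 0.059 without OX-labelled replicate 3, in a range of -0.40 to 0.059 over the fits that leave out 1 library. Adding phosphatase names spelled otherwise gave 1 lower phosphatase gene in place of 0. With library size only, the phosphatase median moved to 0.015 in place of 0.09 on the log2 scale. The median over all genes moved along with it, to -0.070 in place of -0.003. The widened spellings fixed earlier added 1 gene and no call.

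Replicate numbers were not shown to pair cultures, since deviations of same-numbered libraries correlated at -0.16, 0.15 and 0.06. Between libraries of different numbers the correlation ran from -0.31 (OX-labelled replicate 3 with WT replicate 2) to 0.28 (OX-labelled replicate 1 with WT replicate 2). With the replicate block, 2 calcium genes were higher and 2 lower, and 4 phosphatase genes were higher and 0 lower. In that fit 0 cyclic nucleotide genes were called, against 15.1% higher and 9.34% lower of all genes. Of the 9 calls among members, 8 were kept, and the call of COCSUDRAFT_19971 was the one lost (edgeR adjusted p = 0.0696). The fewest counts of a tested member in a library were the 8 counts of COCSUDRAFT_14531, and the part of depth in its wide interval was not tested.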
